A study of Homo sapiens with 36 samples.

Results

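Heterobifunctional degraders (PROTACs) join a target protein to an E3 ubiquitin ligase, and the parts of the 2 ligases that most of them use are described here in acute myeloid leukaemia cells given a degrader. The 9 genes were taken by name: CRBN and VHL (the substrate receptors), DDB1, ELOB and ELOC (the adaptors), CUL4A, CUL4B and CUL2 (the cullin scaffolds) and RBX1 (the RING subunit). They are 9 of the 35490 genes to which the deposited transcript values could be summed. Each was also followed as single transcripts, of which the tables hold 88.

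MOLM-13 and MONO-MAC-6 are established human myeloid leukaemia lines, described in the labels as AML and of wild-type genotype. MOLM-13 cells had received A9 at 0.125 µM or DMSO, MONO-MAC-6 cells A9 at 0.25 µM or DMSO, and both were taken at 72 h. A9 is described as a PROTAC degrader of IKK2 and NR4A1 in the design text, whereas the series title names IKK1 and NR4A1. The labels name no ligase for A9, so no member is the stated ligase of the compound. Each of the 4 groups has 9 libraries, numbered as 3 sets of 3. The 3 libraries of a set were averaged to 1 sample, which gave 3 samples per group. Nothing in the labels says that the samples came from separate cultures, so p-values measure the spread between these samples, which may be technical. Within the ligase genes the median SD of log2 values was 0.045 between libraries of a sample and 0.14 between samples of a group. The dose differed between the lines, and line and dose cannot be told apart.

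Levels are given in TPM, a unit for the abundance of transcripts that is corrected for their length and adds to a fixed total in each library. CRBN (ENSG00000113851) lies on the minus strand at chr3:3144628-3179727 (GRCh38) and VHL (ENSG00000134086) on the plus strand at chr3:10141008-10152220. DDB1 (ENSG00000167986) lies at chr11:61299451-61342596, CUL4A (ENSG00000139842) at chr13:113208193-113267108 and CUL4B (ENSG00000158290) at chrX:120524609-120575794. CUL2 (ENSG00000108094) lies at chr10:35008551-35090642, RBX1 (ENSG00000100387) at chr22:40951347-40973309, ELOB (ENSG00000103363) at chr16:2771414-2777297 and ELOC (ENSG00000154582) at chr8:73939169-73972287.

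Cullin-RING ligases are built on a cullin, which holds a RING subunit at one end and an adaptor with a substrate receptor at the other. The RING subunit RBX1 recruits the ubiquitin-loaded E2 enzyme. In the cereblon ligase, CUL4A or CUL4B carries the adaptor DDB1 and the receptor cereblon (CRBN), to which thalidomide-type drugs bind. In the VHL ligase, CUL2 carries the adaptors elongin B (ELOB) and elongin C (ELOC) and the receptor VHL, which in normal oxygen marks the HIF alpha subunits for degradation. RBX1 is common to both.

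The transcript pairs below are printed because the split of a gene's TPM between these transcripts differed between samples or lines, or, for VHL, because the pair shows which coding exon the shorter form lacks. Each window holds 60 bases, 30 on either side of the point at which the pair parts (40 and 20 for CUL4B), 5′ to 3′ in the direction of transcription (GENCODE 29, GRCh38). Capitals mark the exon end that both transcripts of a pair share, and lower case the part that differs.
DDB1-201: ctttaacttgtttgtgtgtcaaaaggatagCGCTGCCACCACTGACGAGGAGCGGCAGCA
DDB1-203: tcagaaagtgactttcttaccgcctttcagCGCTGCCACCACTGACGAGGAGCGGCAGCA
CRBN-201: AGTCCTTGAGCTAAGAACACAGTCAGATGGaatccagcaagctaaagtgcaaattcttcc
CRBN-213: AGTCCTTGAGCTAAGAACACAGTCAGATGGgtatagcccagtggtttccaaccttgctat
VHL-201: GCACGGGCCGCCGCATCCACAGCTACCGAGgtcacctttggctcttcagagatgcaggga
VHL-202: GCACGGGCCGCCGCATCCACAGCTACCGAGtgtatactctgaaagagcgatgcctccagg
CUL4B-201: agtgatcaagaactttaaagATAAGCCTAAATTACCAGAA
CUL4B-203: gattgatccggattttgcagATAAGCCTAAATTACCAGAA
In DDB1-201 the lower-case bases end the exon at chr11:61303046-61303075 and are coding, whereas in DDB1-203 they are the intron bases at chr11:61302752-61302781, which run into the exon unspliced. In CRBN-213 the lower-case bases, at chr3:3172617-3172646, lie 129 bases beyond the shared exon, in the intron that CRBN-201 removes before its next exon at chr3:3167764-3167793. VHL-202 joins the shared first exon to the exon at chr3:10149787-10149816 and leaves out the one that VHL-201 enters at chr3:10146514-10146543. CUL4B-203 begins in an exon of its own, at chrX:120559779-120559798, before the shared coding exon at chrX:120558020-120558039.

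RNA markers were those of myeloid cells in both lines. Of 12 myeloid markers, 10 or 11 had a group mean of at least 1 TPM in each group, and the others (CD14, CSF1R) were the ones under it. T cell, B cell, erythroid and fibroblast genes that define those types (CD3E, MS4A1, HBB, COL3A1) were listed at 0 in every group. Of the markers of other cells, 1 or 2 of 5 T and NK cell genes, 0 or 1 of 3 B cell genes, 0 or 1 of 3 erythroid genes, 2 of 4 epithelial genes and 0 of 3 fibroblast genes reached that level. The summed T and NK cell genes lay between 40.2 and 64.4 TPM in MOLM-13 samples, and in MONO-MAC-6 between 103.9 and 114 TPM with DMSO and 91.5 and 96.1 TPM with A9. The erythroid sum reached 0.157 TPM at most in MOLM-13, while in MONO-MAC-6 it was 5.18 to 8.66 TPM with DMSO and 2.27 to 4.55 TPM with A9. The B cell sum lay between 1.04 and 7.07 TPM, the epithelial between 3.57 and 16.4 TPM and the fibroblast between 0.155 and 1.55 TPM over all samples. The summed myeloid markers lay between 4385 and 5283 TPM in MONO-MAC-6 DMSO samples and between 9298 and 9544 TPM with A9, and between 851 and 930 TPM and 1056 and 1204 TPM in MOLM-13; their part in the results below was not tested. MONO-MAC-6 DMSO sample 1 stood apart from the other MONO-MAC-6 samples, with a TPM-weighted mean transcript length of 1241 bases against 1419 to 1444. The A9 changes of the members in this line are also given without it. MOLM-13 A9 sample 3 was shorter still, at 1227 bases against 1333 and 1378 in the other A9 samples of MOLM-13. Without that sample the A9 log2 changes in MOLM-13 were 0.027 for CUL4A and 0.023 for CUL4B, against -0.09 for each with it. In each of 6 MOLM-13 fits without 1 sample, 0 members were called with A9.

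The adaptors of the VHL ligase were the most abundant members and the cullins CUL2 and CUL4B the least, in all 4 groups. In MOLM-13 DMSO samples ELOB had 229.8 ± 36.0 TPM (SD, n = 3), ELOC 152 ± 15.5, DDB1 85.3 ± 7.11, RBX1 77.1 ± 4.84, CUL4A 71.8 ± 10.2, CRBN 20.5 ± 1.36, VHL 19.3 ± 0.969, CUL2 7.98 ± 2.54 and CUL4B 5.72 ± 0.551 TPM. The samples of DDB1, RBX1 and CUL4A overlapped their neighbours in that order, as did those of CRBN and VHL and those of CUL2 and CUL4B. Both receptors thus stood well under their adaptors, with DDB1 at 4.03 to 4.29 times CRBN and ELOC at 6.73 to 9.05 times VHL in the MOLM-13 DMSO samples.

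**Figure D1:**
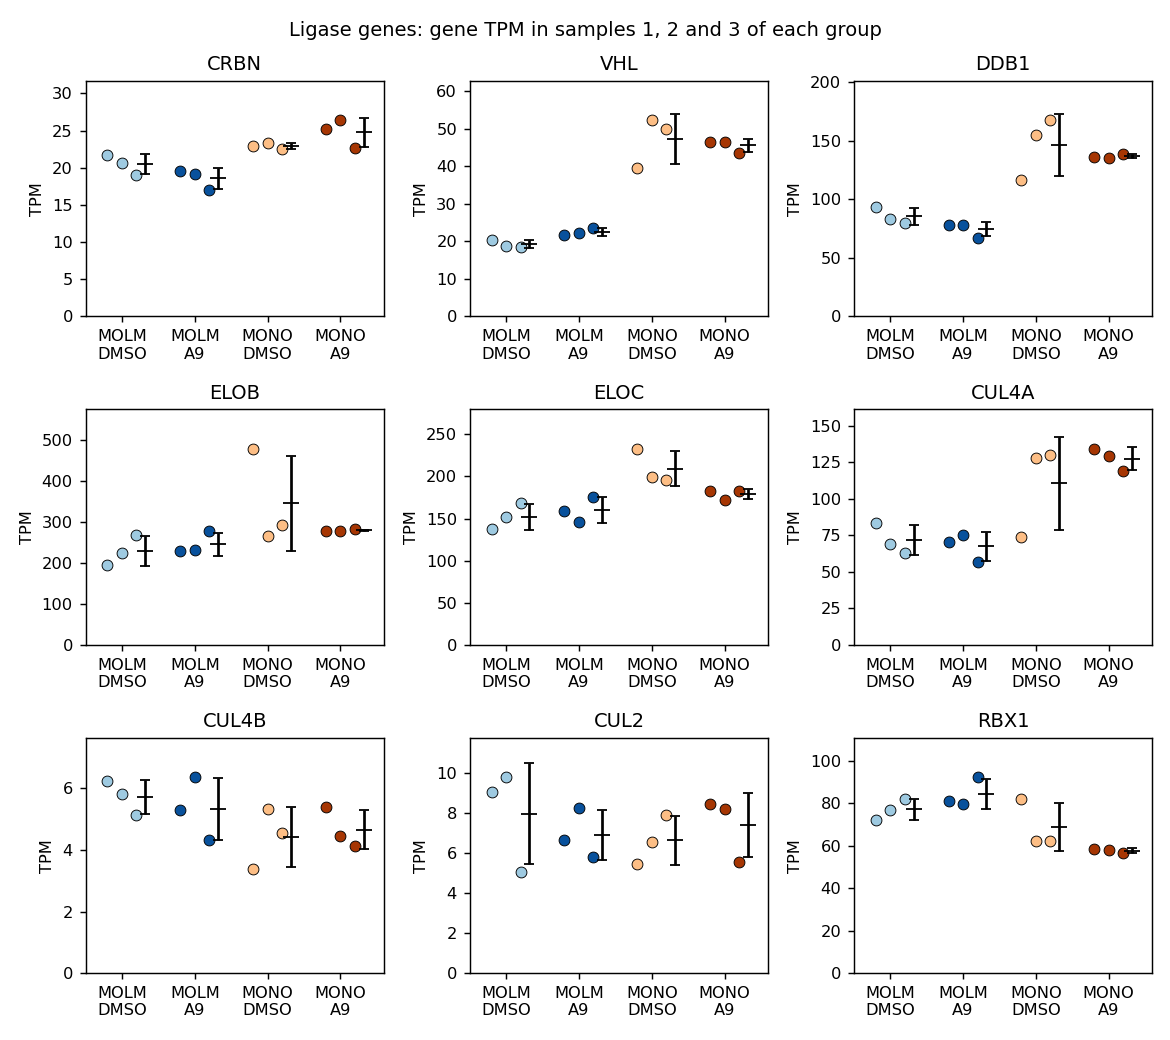
Gene TPM (vertical axis, from 0) of the 9 ligase genes in samples 1, 2 and 3 of each group (left to right within a group), with the group mean and SD as a black mark to the right of the points. VHL lay between 18.6 and 23.6 TPM in MOLM-13, under the 39.6 to 52.3 TPM of MONO-MAC-6, and CRBN lay at 17.0 to 21.7 TPM in the former line and at 22.6 to 26.4 TPM in the latter.

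VHL was the member that differed most between the lines. In DMSO it had 20.4, 18.9 and 18.6 TPM in MOLM-13 samples 1, 2 and 3 and 39.6, 52.3 and 49.9 TPM in those of MONO-MAC-6. Every MONO-MAC-6 sample was above every MOLM-13 sample, a 2.36-fold difference (95% interval 1.89 to 2.95) with an adjusted p of 0.000467 by limma. This fold and those below are on the log2(TPM + 1) scale, on which changes of low genes are understated.

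CRBN, the other receptor, had 21.7, 20.6 and 19.0 TPM in the MOLM-13 DMSO samples and 23.0, 23.4 and 22.6 TPM in those of MONO-MAC-6. The groups did not overlap, but the 1.12-fold difference (0.940 to 1.33) did not pass the test (limma adjusted p = 0.244). VHL over CRBN was accordingly 0.92 to 0.98 in the MOLM-13 DMSO samples and 1.72 to 2.24 in those of MONO-MAC-6.

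Among the adaptors, DDB1 and ELOC were also higher in MONO-MAC-6. DDB1, which links receptors to CUL4, had 93.3, 83.0 and 79.7 TPM in MOLM-13 DMSO and 116, 155 and 167 TPM in MONO-MAC-6 DMSO, with no overlap. It was 1.69-fold higher (1.30 to 2.19, limma adjusted p = 0.00756). The DDB1 call was lost over protein-coding transcripts alone (log2 difference 0.33 against 0.76, limma adjusted p = 0.610). ELOC, which binds VHL directly, had 137, 151 and 168 TPM against 233, 199.7 and 195 TPM, again without overlap, and was 1.37-fold higher (1.14 to 1.66; limma adjusted p = 0.0161). The ELOC call was lost without MOLM-13 DMSO sample 1 (adjusted p = 0.0559) or sample 2 (adjusted p = 0.0623), and when the samples were scaled to a common median ratio (adjusted p = 0.287), the GC trend was removed (adjusted p = 0.254) or the length trend was removed (log2 difference 0.19 against 0.46, adjusted p = 0.150). ELOB, its partner, had 196, 226 and 268 TPM against 479.7, 267 and 293 TPM. These samples overlapped, and the 479.7 TPM belong to MONO-MAC-6 sample 1.

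The cullins and RBX1 did not pass the test between the lines in the values as deposited. CUL4A had 83.1, 69.3 and 63.1 TPM in MOLM-13 DMSO and 73.8, 128 and 129.7 TPM in MONO-MAC-6 DMSO, where sample 1 alone lay in the MOLM-13 range (1.49-fold, 0.994 to 2.24; limma adjusted p = 0.0938). CUL4B, the X-linked paralog of CUL4A, had 6.22, 5.80 and 5.13 TPM against 3.38, 5.33 and 4.54 TPM. Its log2 difference was -0.32 (limma adjusted p = 0.178), and -0.18 without MONO-MAC-6 DMSO sample 1. Within every sample CUL4A was above CUL4B, 11.8 to 13.4 times in the MOLM-13 samples and 21.9 to 28.9 times in those of MONO-MAC-6, so that this ratio did not overlap between the lines with or without A9. CUL2 had 9.07, 9.79 and 5.08 TPM against 5.46, 6.54 and 7.91 TPM, and RBX1 had 72.4, 76.9 and 82.0 TPM against 81.9, 62.2 and 62.3 TPM. Both overlapped.

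In sum 3 of 9 members passed the test between the DMSO groups, all higher in MONO-MAC-6, where 48.8% of the 12928 genes tested passed in either direction and 30.4% passed as higher. Samples did not overlap for 4 of 9 members, against 59.0% of all genes. The members' counts lay near or under these shares. The members' median log2 difference was 0.46, and that of all genes 0.12. Without MONO-MAC-6 DMSO sample 1, 5 of 9 passed, with CUL4A higher (log2 difference 0.84, limma adjusted p = 0.00201) and RBX1 lower (log2 difference -0.30, adjusted p = 0.0162) in addition to the 3, and the share of all genes was then 61.8%. Other settings called other members, and not all as higher. With median-ratio scaling the 4 called were VHL, DDB1 and CUL4A, all higher, and CUL4B, lower (log2 difference -0.44, limma adjusted p = 0.0121), beside 54.3% of all genes. With the GC trend removed the same 4 were called (CUL4B -0.40, adjusted p = 0.0116), beside 57.5%. With the length trend removed 5 were called, those 4 (CUL4B -0.42, adjusted p = 0.00839) and RBX1, lower (-0.42, adjusted p = 0.0288), beside 61.7%.

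A9 at these doses left no member past the threshold in either line. In MOLM-13, 0 of 9 members passed by limma, where 0.121% of 11602 genes did. In MONO-MAC-6, 0 of 9 passed, where 3.36% of 12876 genes did. These counts rest on the first number of a library's title marking the sample: averaged by the second number, 6 members were called in MOLM-13, where 46.9% of all genes were, and 5 in the other line, where 67.6% were. At an unadjusted p under 0.05 there was 1 member in each line. It was VHL in MOLM-13, where 7.89% of all genes reached that p, and ELOC in the other line, where 20.4% did. Members' fitted log2 changes in MOLM-13 ran from -0.19 to 0.21 (median -0.09, all genes -0.05), and those in MONO-MAC-6 from -0.26 to 0.25 (median -0.04, all genes 0.16). The median of all genes in MONO-MAC-6 was 0.007 after median-ratio scaling and 0.027 without DMSO sample 1, so a member near 0 in that line lay under the median gene as deposited.

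**Figure D2:**
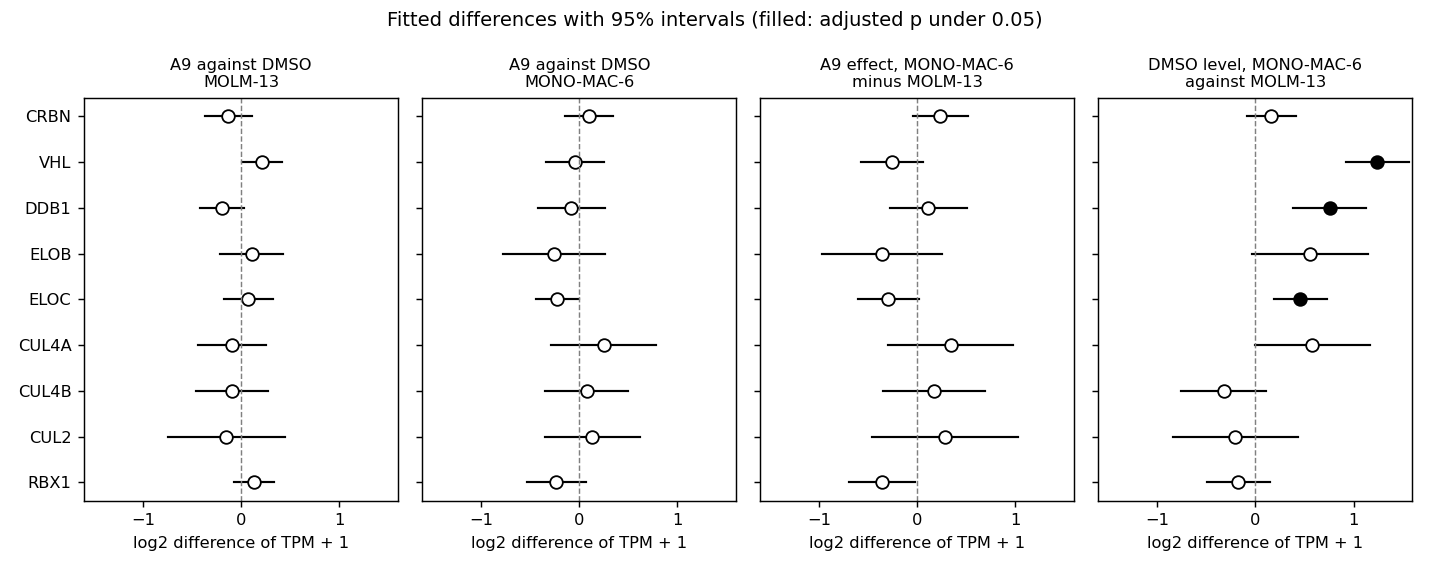
Fitted log2 differences of TPM + 1 (horizontal axis) with 95% intervals for the 9 members in 4 comparisons, filled where the limma adjusted p was under 0.05. No member is filled in the 3 A9 comparisons, and VHL, DDB1 and ELOC are filled for the DMSO level.

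VHL, the receptor, had 20.4, 18.9 and 18.6 TPM with DMSO and 21.7, 22.2 and 23.6 TPM with A9 in MOLM-13. The A9 samples were all above the DMSO samples, by 16.8% of the mean, and the fold was 1.16 (95% interval 1.005 to 1.34; unadjusted p = 0.0446, limma adjusted p = 0.613). The MONO-MAC-6 values of VHL were 39.6, 52.3 and 49.9 TPM with DMSO and 46.6, 46.5 and 43.7 TPM with A9, which lie inside the DMSO range (0.972-fold, 0.791 to 1.19; adjusted p = 0.838). Without DMSO sample 1 the log2 change was -0.16 (limma adjusted p = 0.0654), against -0.04 with it. The effect in MONO-MAC-6 minus that in MOLM-13 had a log2 value of -0.26, which missed the threshold (95% interval -0.57 to 0.06, limma adjusted p = 0.357), and -0.37 without that sample (limma adjusted p = 0.0585). With the GC trend removed it was -0.50 (limma adjusted p = 0.0709), and with the length trend removed -0.59 (limma adjusted p = 0.0886).

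CRBN had 21.7, 20.6 and 19.0 TPM with DMSO and 19.5, 19.2 and 17.0 TPM with A9 in MOLM-13, where the groups overlapped (0.912-fold, 0.772 to 1.08; limma adjusted p = 0.858). The MONO-MAC-6 values of CRBN were 23.0, 23.4 and 22.6 TPM with DMSO and 25.2, 26.4 and 22.7 TPM with A9 (1.07-fold, 0.906 to 1.27; limma adjusted p = 0.548). The intervals do not show that CRBN stayed the same, and after median-ratio scaling its log2 change in MONO-MAC-6 was -0.07 against 0.10, which was also 0.10 without DMSO sample 1. In MOLM-13 the ratio of VHL to CRBN was 0.92 to 0.98 with DMSO and 1.11 to 1.39 with A9, without overlap, for which a two-sided exact permutation test with 3 samples a side gives its smallest p, 0.1. It was 1 of several ratios of members taken, and the others overlapped in that line. For DDB1 over CRBN they were 4.03 to 4.29 with DMSO and 3.97 to 4.07 with A9. In MONO-MAC-6 the ratio of VHL to CRBN was 1.72 to 2.24 with DMSO and 1.76 to 1.93 with A9.

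DDB1, the adaptor of cereblon, had 93.3, 83.0 and 79.7 TPM with DMSO and 78.0, 78.2 and 67.3 TPM with A9 in MOLM-13. Every A9 sample was under every DMSO sample (0.874-fold, 0.748 to 1.02; limma adjusted p = 0.719). The MONO-MAC-6 values of DDB1 were 116, 155 and 167 TPM with DMSO and 136, 135 and 138 TPM with A9, and the lowest DMSO sample was sample 1. With all samples the fold was 0.945 (limma adjusted p = 0.720), and without DMSO sample 1 the log2 change was -0.24 (limma adjusted p = 0.0088). That setting also called ELOC (log2 change -0.14, adjusted p = 0.0478), and the share of all genes called in it was 24.8%, against 3.36%.

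ELOC had 233, 199.7 and 195 TPM with DMSO and 182, 172 and 182 TPM with A9 in MONO-MAC-6. All A9 samples were lower (0.857-fold, 0.737 to 0.998; unadjusted p = 0.0473, limma adjusted p = 0.239). The MOLM-13 values of ELOC were 137, 151 and 168 TPM with DMSO and 159, 146 and 176 TPM with A9, which overlapped. ELOB had 196, 226 and 268 TPM with DMSO and 229, 232 and 278 TPM with A9 in MOLM-13. In MONO-MAC-6 ELOB had 479.7, 267 and 293 TPM with DMSO and 279, 278 and 282 TPM with A9. Apart from DMSO sample 1 these values lie close together, and without it the log2 change of ELOB was 0.002 against -0.26 with it.

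RBX1, common to both ligases, had 72.4, 76.9 and 82.0 TPM with DMSO and 81.1, 79.7 and 92.3 TPM with A9 in MOLM-13, and 81.9, 62.2 and 62.3 TPM with DMSO and 58.6, 58.2 and 56.5 TPM with A9 in MONO-MAC-6. The A9 samples of MONO-MAC-6 were all lower than its DMSO samples (0.849-fold, 0.689 to 1.05; limma adjusted p = 0.327). The 81.9 TPM belong to DMSO sample 1, without which the log2 change was -0.11 (limma adjusted p = 0.138) against -0.24. In the values as deposited, RBX1 was the single member with an unadjusted p under 0.05 for the difference of the A9 effect between the lines (log2 difference -0.36, 95% interval -0.70 to -0.03, unadjusted p = 0.0368, limma adjusted p = 0.253), where 17.7% of all genes had one. Without DMSO sample 1 of MONO-MAC-6 that difference was -0.23 (limma adjusted p = 0.276). None of the 9 passed that test after adjustment, where 2.99% of 13417 genes did.

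The cullins overlapped between A9 and DMSO in both lines. CUL4A had 83.1, 69.3 and 63.1 TPM with DMSO and 70.3, 75.3 and 56.4 TPM with A9 in MOLM-13, and 73.8, 128 and 129.7 TPM with DMSO and 134, 129 and 119 TPM with A9 in MONO-MAC-6. CUL4B had 5.30, 6.36 and 4.34 TPM with A9 in MOLM-13 and 5.38, 4.46 and 4.14 TPM in MONO-MAC-6. CUL2 had 6.67, 8.24 and 5.82 TPM with A9 in MOLM-13 and 8.45, 8.21 and 5.57 TPM in MONO-MAC-6. Their limma adjusted p-values in MOLM-13 were 0.893, 0.896 and 0.897, and those in MONO-MAC-6 were 0.511, 0.796 and 0.682. Without DMSO sample 1 of that line the log2 changes of CUL4A, CUL4B and CUL2 were -0.02, -0.07 and 0.02, against 0.25, 0.07 and 0.13 with it.

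Over both lines, samples did not overlap for 2 of 9 members in MOLM-13 (VHL higher, DDB1 lower) and for 2 of 9 in MONO-MAC-6 (ELOC and RBX1, both lower). Of all genes in MOLM-13, samples did not overlap for 15.0%, with 8.58% higher and 6.42% lower. Of those in MONO-MAC-6, they did not overlap for 37.9%, with 10.7% lower.

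As single transcripts, 40 of the 88 had a group mean of at least 1 TPM. By GENCODE 29 type, 28 of these are protein-coding, 7 retain an intron, 3 are processed transcripts and 2 are targets of nonsense-mediated decay, the pathway that removes mRNAs with an early stop. With A9, 0 of 31 tested in MOLM-13 and 0 of 40 tested in MONO-MAC-6 passed by limma, where 0.00982% and 0.406% of all transcripts did. At an unadjusted p under 0.05 there were 2 in each line, while 5.34% of all transcripts in MOLM-13 and 16.3% of those in MONO-MAC-6 reached it. They were VHL-201 and ELOC-208 in the former line and ELOC-203 and CUL4B-203 in the latter. VHL-201 had 17.8, 16.4 and 16.2 TPM with DMSO and 18.9, 19.5 and 20.3 TPM with A9 in MOLM-13 (log2 change 0.21, limma adjusted p = 0.881).

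By group mean, protein-coding transcripts held most of the TPM of 8 members in all 4 groups, and a minority of that of CRBN. In MOLM-13 DMSO samples 42.3%, 47.3% and 42.7% of CRBN TPM lay on protein-coding transcripts, and in MONO-MAC-6 DMSO samples 29.3%, 31.2% and 35.6%. The MONO-MAC-6 samples were all lower. ELOB and ELOC had only protein-coding transcripts among those listed above 0, and VHL, RBX1, CUL4A and CUL4B had at least 88.6% in every sample. CUL2 ran from 41.6% to 74.2%, and DDB1 from 29.7% to 94.8%.

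**Figure D3:**
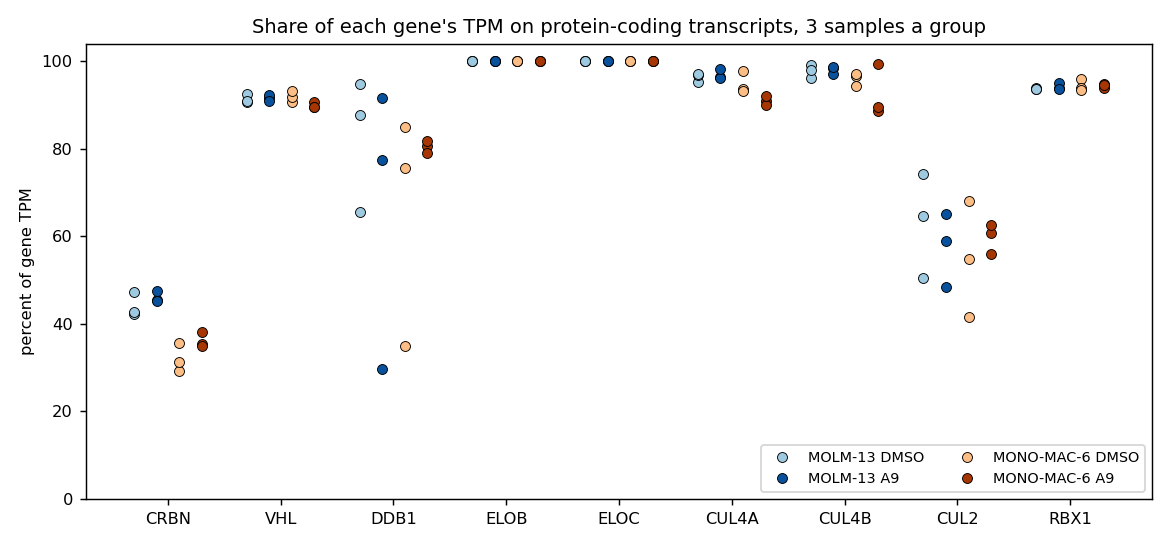
Percent of each gene's TPM (vertical axis) that lay on protein-coding transcripts, 1 point per sample in 4 columns per gene (MOLM-13 DMSO, MOLM-13 A9, MONO-MAC-6 DMSO, MONO-MAC-6 A9). CRBN lies under 50% in all 12 samples, and DDB1 spreads from 29.7% to 94.8%.

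The leading CRBN transcript was CRBN-213 (ENST00000498700, 1012 bases), which carries the intron stretch printed above. It had 8.70, 9.51 and 9.88 TPM in MOLM-13 DMSO and 15.2, 13.9 and 12.5 TPM in MONO-MAC-6 DMSO. The full-length coding CRBN-201 (ENST00000231948, 2206 bases) had 6.56, 7.24 and 6.20 TPM and 4.19, 4.72 and 5.12 TPM in those samples. CRBN-213 was thus higher in MONO-MAC-6 and CRBN-201 lower, both without overlap. Single transcripts were not tested between the DMSO groups, where samples did not overlap for 59.0% of all genes. The share over all transcripts is not given. Summed over protein-coding transcripts alone, CRBN had a log2 difference of -0.26 between the DMSO groups (limma adjusted p = 0.150), against 0.16 over all its transcripts. Neither of these sums passed the test.

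With A9, CRBN-213 had 8.27, 7.36 and 7.35 TPM in MOLM-13, all under the DMSO samples (log2 change -0.26, unadjusted p = 0.0532, limma adjusted p = 0.881), and 13.2, 12.9 and 11.8 TPM in MONO-MAC-6. CRBN-201 had 5.65, 6.54 and 5.79 TPM with A9 in MONO-MAC-6, all above its DMSO samples (log2 change 0.30, limma adjusted p = 0.348). Of the 31 member transcripts tested in MOLM-13, 3 were higher and 1 lower without overlap, and of the 40 in MONO-MAC-6, 5 and 4. The matching shares of all transcripts are not given, so these are descriptions only. Over protein-coding transcripts the log2 changes of CRBN with A9 in MOLM-13 and MONO-MAC-6 were -0.07 and 0.25 (limma adjusted p = 0.890 and 0.317).

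For DDB1 the TPM moved between 2 transcripts from sample to sample. DDB1-201 (ENST00000301764, 4506 bases) codes for the protein, and DDB1-203 (ENST00000451943, 1224 bases) covers the end of the gene from the intron bases printed above. DDB1-203 had 0.27, 7.64 and 25.0 TPM in MOLM-13 DMSO, 14.4, 2.83 and 44.2 TPM in MOLM-13 A9, 67.7, 19.8 and 2.43 TPM in MONO-MAC-6 DMSO and 3.65, 1.85 and 6.003 TPM in MONO-MAC-6 A9. DDB1-201 had 88.2, 72.7 and 52.1 TPM, 60.3, 71.0 and 19.9 TPM, 40.5, 116 and 141 TPM, and 108, 109 and 108 TPM in the same samples. In each line the sample with the most DDB1-203 had the least DDB1-201, and the sum of both in MOLM-13 ran from 64.1 to 88.5 TPM and that in MONO-MAC-6 from 108 to 144 TPM.

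The share of DDB1-203 was highest in the samples with the shortest transcripts as a whole. The 3 samples with the shortest TPM-weighted mean transcript length, MOLM-13 A9 sample 3 (1227 bases), MONO-MAC-6 DMSO sample 1 (1241 bases) and MOLM-13 DMSO sample 3 (1289 bases), were the 3 with the highest share, at 65.7%, 58.3% and 31.3% of DDB1 TPM. Their transcripts under 1000 bases held 59.5%, 58.3% and 57.3% of all TPM, against 52.4% to 56.2% in the other 9 samples. In MOLM-13 the order of the 6 samples by length was the exact reverse of their order by the share of DDB1-203. In MONO-MAC-6 that order held for sample 1 alone: DMSO sample 2 had the next highest share at 12.8%, with 1420 bases, and the other 4 lay between 1.37% and 4.34% with 1419 to 1444 bases. For CUL4B the short CUL4B-203 (846 bases) held 0.3%, 22.1% and 37.4% of CUL4B TPM in MOLM-13 DMSO and 28.9%, 14.2% and 75.0% with A9, and 77.7% in MONO-MAC-6 DMSO sample 1 against 4.3% to 21.9% in the other 5. Its order was again the reverse of length in MOLM-13 but not in MONO-MAC-6, where the longest sample (DMSO sample 3) held 11.97% and the second shortest (A9 sample 3) 4.28%. These are descriptions of 12 samples, and the points share their libraries.

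**Figure D4:**
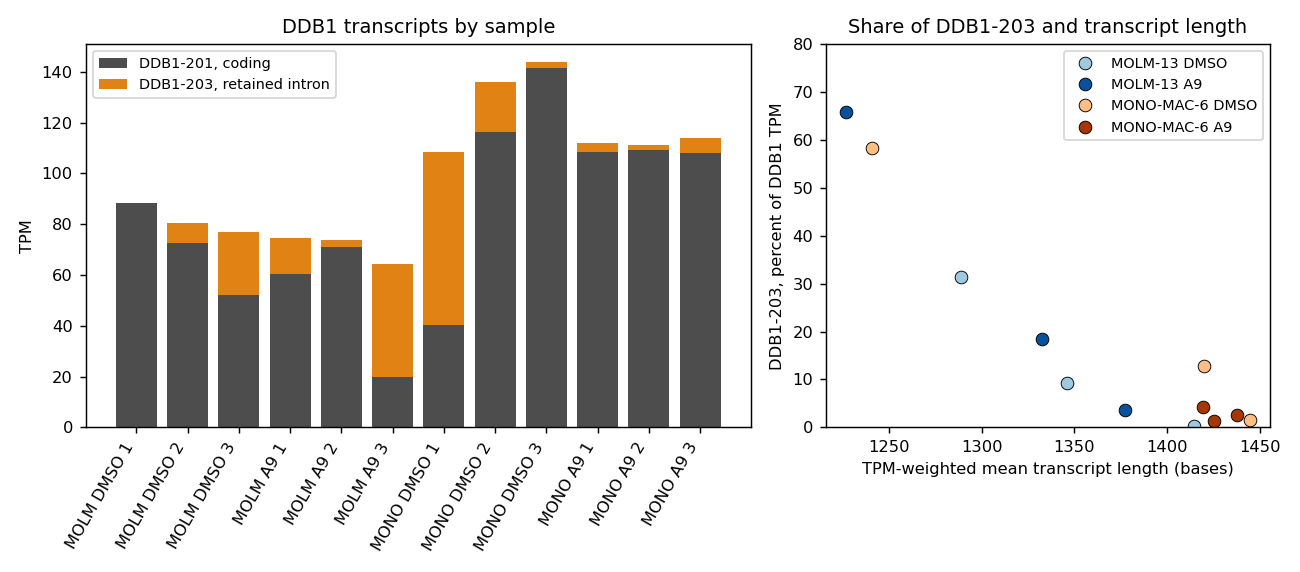
Left, TPM (from 0) of the coding DDB1-201 and the intron-retaining DDB1-203 stacked by sample. Right, DDB1-203 as percent of DDB1 TPM against the TPM-weighted mean transcript length of the sample in bases; the 3 samples with the shortest length lie at 31.3% to 65.7% and the other 9 at 18.4% or less.

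The DDB1 values depended on which transcripts were summed. Over protein-coding transcripts alone, the A9 change of DDB1 in MONO-MAC-6 had a log2 value of 0.32 (limma adjusted p = 0.677) against -0.08 for the whole gene, and the DMSO difference between the lines was 0.33 (adjusted p = 0.610) against 0.76. Another DDB1 transcript, DDB1-217 (ENST00000540166), a target of nonsense-mediated decay, had 0.13 to 0.49 TPM in the 6 MOLM-13 samples and 2.04 to 17.7 TPM in the 6 of MONO-MAC-6. It had 14.4 to 15.3 TPM in the MONO-MAC-6 A9 samples, and its lowest MONO-MAC-6 value was again that of DMSO sample 1.

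VHL-201 carried most of VHL in both lines, and VHL-202, which lacks the second coding exon, was at a low level. The processed transcript VHL-203 lay above VHL-202 by group mean. It had 1.64 and 1.89 TPM in MOLM-13 DMSO and A9, and 3.76 and 4.55 TPM in MONO-MAC-6 DMSO and A9. The means of VHL-202 in the same order were 0.84, 1.05, 3.33 and 3.64 TPM. VHL-202 had 1.08, 0.74 and 0.69 TPM in MOLM-13 DMSO, 1.04, 0.98 and 1.14 TPM in MOLM-13 A9, 3.25, 3.62 and 3.11 TPM in MONO-MAC-6 DMSO and 3.99, 4.01 and 2.92 TPM in MONO-MAC-6 A9. The A9 and DMSO samples overlapped in each line (limma adjusted p = 0.881 and 0.737). CUL2 was split between the coding CUL2-204 and CUL2-205, a target of nonsense-mediated decay, with 4.53, 4.26 and 3.11 TPM of the former and 2.16, 4.63 and 1.69 TPM of the latter in MOLM-13 DMSO.

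Around the 9 members, 101 genes of the same pathways were followed: other CUL4 and CUL2 receptors, other cullins, the neddylation enzymes that switch cullins on, the COP9 signalosome that switches them off, E1 and E2 enzymes, substrates of cereblon and VHL, and other ligases used by degraders. With A9, 1 of 93 tested rose and 0 fell in MOLM-13, and 2 of 95 rose and 0 fell in MONO-MAC-6 (limma, shares of all genes 0.121% and 3.36%). At an unadjusted p under 0.05 there were 3 of 93 and 10 of 95, beside 7.89% and 20.4% of all genes. None of the 21 CUL4 partners and receptors, the 11 tested CUL2 receptors, the 7 other cullin parts, the 10 neddylation genes, the 13 signalosome and exchange genes, the 12 E1 and E2 genes or the 11 tested other ligases passed in either line. The medians of these 7 lists in MOLM-13 ran from -0.16 to 0.06, beside -0.05 for all genes, and those in MONO-MAC-6 from -0.14 to 0.27, beside 0.16. The 2 lists of substrates had medians in MOLM-13 of -0.13 for cereblon (7 genes tested) and -0.10 for VHL and its oxygen sensors (6 tested), and in MONO-MAC-6 of 0.17 (8 tested) and 0.50 (7 tested). For the difference of the A9 effect the median of the VHL list was 0.85, beside 0.20 for all genes. Without MONO-MAC-6 DMSO sample 1 these VHL medians were 0.15 and 0.35, beside 0.03 and 0.07 for all genes, and that of the cereblon list in MONO-MAC-6 was -0.09. Between the DMSO groups 17 of 96 pathway genes were higher and 10 lower in MONO-MAC-6, under the 48.8% of all genes.

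The gene that passed in both lines was ZNF692, a zinc finger gene whose protein is degraded through cereblon in the presence of thalidomide analogs. It had 76.5, 68.3 and 72.4 TPM with DMSO and 109.5, 117 and 122 TPM with A9 in MOLM-13, and 105, 96.1 and 92.2 TPM with DMSO and 139, 139 and 136 TPM with A9 in MONO-MAC-6. All A9 samples were higher, with log2 changes of 0.68 ± 0.073 (SE) and 0.49 ± 0.079 and limma adjusted p-values of 0.0499 and 0.0271. Over protein-coding transcripts alone the log2 change was 0.69 in MOLM-13 (adjusted p = 0.379) and -0.13 in MONO-MAC-6 (adjusted p = 0.753). Neither call held after median-ratio scaling (adjusted p = 0.1001 and 0.322). The MOLM-13 call was lost in each of 6 fits without 1 sample (adjusted p 0.0893 to 0.287), and the MONO-MAC-6 call held in 1 of 6 (0.000127 to 0.181). That 1 fit left out MONO-MAC-6 DMSO sample 1, and 24.8% of all genes were called in it.

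EPAS1, which codes for HIF-2 alpha, a substrate of VHL, had 0.26, 0.85 and 0.59 TPM with DMSO and 1.85, 2.33 and 3.13 TPM with A9 in MONO-MAC-6. All A9 samples were higher (log2 change 1.13 ± 0.20, limma adjusted p = 0.0396), and the call held in 1 of 6 fits without 1 sample (adjusted p 0.00494 to 0.185). That fit left out DMSO sample 1, and 24.8% of all genes were called in it. The EPAS1 call was also lost with a pseudocount of 0.1, no filter or the replicate block. In MOLM-13 EPAS1 had 12.5, 9.66 and 7.87 TPM with DMSO and 11.2, 13.3 and 9.33 TPM with A9, which overlapped. The test of the difference in effect between MONO-MAC-6 and MOLM-13 gave a log2 difference of 0.97 and a limma adjusted p of 0.133, above the threshold.

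**Figure D5:**
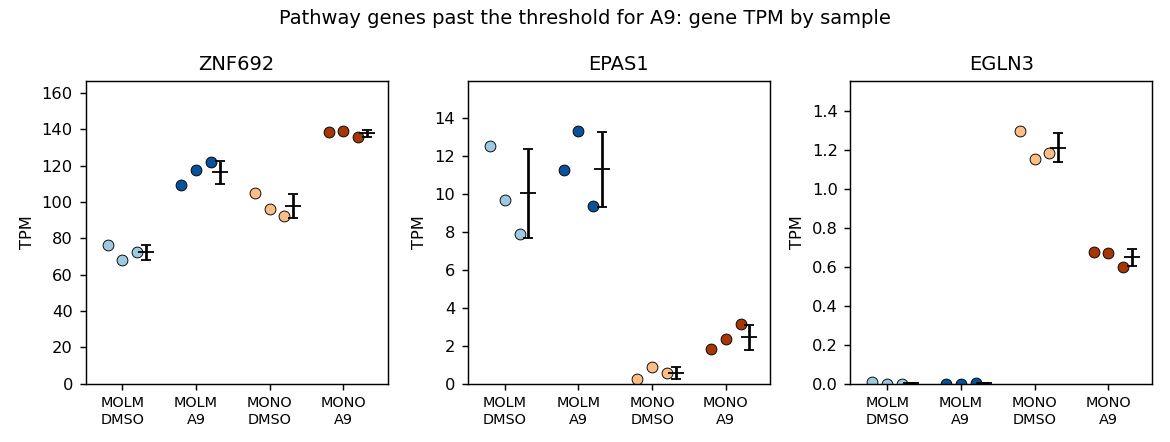
Gene TPM (from 0) of ZNF692, EPAS1 and EGLN3 in samples 1, 2 and 3 of each group, with mean and SD as a black mark. With A9, ZNF692 lies above DMSO in both lines, EPAS1 lies above DMSO in MONO-MAC-6 at 1.85 to 3.13 TPM, and EGLN3 lies at 0.60 to 0.67 TPM against 1.15 to 1.29 TPM in MONO-MAC-6.

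The genes whose levels moved most like those of each receptor were named by Pearson's r over the 12 samples, after the mean of each line was taken out, among 8054 genes whose mean reached 5 TPM in both lines. For CRBN they were TRMU (r = 0.90), DRAM2 (r = 0.88) and SYS1 (r = 0.86). For VHL they were SNX3 (r = 0.95), ITPR1 (r = 0.88) and ITCH (r = 0.87). CRBN and VHL themselves had an r of -0.28, and the highest r of a member with CRBN was that of CUL2 (0.70) and the lowest that of ELOC (-0.72); CUL4B lay under the minimum. All points share libraries with the transcript-length differences given above, so these values describe the 12 samples only.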

How the data were processed

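The deposited tables hold TPM, 1 value per Ensembl transcript and library, for 207175 transcripts in 36 libraries. The submitters' processing notes name kallisto, limma and GRCh38, without versions. Per the labels, poly(A) RNA with a RIN of at least 8 was sequenced as paired-end reads of 150 bases at a stated 25000000 reads per sample; TPM keep no counts, so the depth reached is not known and values carry no counting interval. Identifiers of 162561 transcripts (78.5%) matched GENCODE 29, with 89.9% to 91.4% of each library's TPM. Their TPM were summed by GENCODE gene identifier, of which each member symbol had a single one. Libraries sharing the first number of the title were averaged.

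Genes or transcripts with a group mean of at least 1 TPM were tested as log2(TPM + 1) with limma 3.58.1 in R 4.3.3 (lmFit, eBayes with trend and robust), two-sided, with Benjamini-Hochberg adjustment over all features tested and a threshold of 0.05. Each line was fitted alone, and an interaction term over all 12 samples tested whether the A9 effect differed by line. The scripts were tested on simulated data. The named genes were all 9 members, their transcripts of at least 1 TPM, the pathway genes past the threshold and the 3 genes most like each receptor. Members and lists were chosen with earlier results of these data known, and no list was tested as a set. Alternatives were the pseudocount, filters, threshold, averaging, scaling, length and GC trends, the replicate block, leaving out samples and, chosen after seeing the data, protein-coding transcripts only. Sequences come from the GENCODE 29 transcripts. Protein sequences were not used here.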

Additional observations from a re-analysis of the deposited data

Results flagged for a closer look

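EGLN3, which codes for a HIF prolyl hydroxylase whose product prepares HIF alpha subunits for VHL, was the pathway gene called by the test of the difference in A9 effect between the lines (log2 difference -0.422, SE 0.092, limma adjusted p = 0.0359). The MONO-MAC-6 values were 1.29, 1.15 and 1.19 TPM with DMSO and 0.67, 0.67 and 0.60 TPM with A9, all lower, but that change alone did not pass the test (log2 change -0.42, limma adjusted p = 0.0935). In MOLM-13 it lay at or under 0.00632 TPM in all 6 samples, so its effect there was close to 0 by its level alone, and the difference restates the MONO-MAC-6 change. The call of the difference held in 2 of 12 fits without 1 sample (adjusted p 0.0306 to 0.109) and in 3 of 8 other settings (adjusted p 0.00703 to 0.157). It was lost with a pseudocount of 0.1, median-ratio scaling, the length trend or the GC trend removed, and the replicate block. It held with no filter, with averaging by the second number and with each library as its own sample. Averaging by the second number called 76 pathway genes for the difference, and each library as its own sample called 40. The shares of all genes called for the difference in these settings are not given.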

How the results depend on the processing

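The count of members past the threshold rested on which libraries counted as a sample. Averaging by the second number, or taking each library as its own sample, called 6 and 2 members in MOLM-13, in MONO-MAC-6 5 and 2, 7 and 5 for the difference between the lines, 8 and 8 between the DMSO groups, and for transcripts 11 and 1 in MOLM-13 but 21 and 11 in the other line. The same choices called 51 and 9 pathway genes in MOLM-13, in MONO-MAC-6 76 and 40, 76 and 40 for the difference, and 81 and 58 between the DMSO groups. With averaging by the second number, 46.9% of all genes passed with A9 in MOLM-13, against 67.6% for the other line. For that averaging no share is given for the difference between the lines, the DMSO groups or the transcripts. For each library as its own sample no share is given for any fit. A count without a share is no result about the members or the pathway. Libraries of 1 set vary less than sets do. With the length trend removed, 1 member (DDB1, log2 change -0.33, adjusted p = 0.0459) was called in MONO-MAC-6, 5 members and 46 pathway genes between the DMSO groups, 4 pathway genes in MONO-MAC-6 and 2 for the difference. The share of all genes in that setting was 61.7% between the DMSO groups and is not given for the A9 fits. Leaving out 1 sample gave 0 to 2 members in MONO-MAC-6 and 2 to 5 between the DMSO groups, both highest without MONO-MAC-6 DMSO sample 1, and 0 pathway genes in MOLM-13, 0 to 17 in MONO-MAC-6, 0 to 1 for the difference and 23 to 51 between the DMSO groups. Without MONO-MAC-6 DMSO sample 1, 24.8% of all genes were called with A9 in MONO-MAC-6 and 61.8% between the DMSO groups.

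The pathway calls were few and unsteady. In MOLM-13, against 1, there were 0 with no filter, median-ratio scaling, the GC trend removed, protein-coding transcripts only or a threshold of 0.01. In MONO-MAC-6, against 2, there was 1 with a pseudocount of 0.1, a minimum of 5 TPM, median-ratio scaling, the GC trend removed or protein-coding transcripts only, and 0 with no filter or a threshold of 0.01. EPAS1, with a highest group mean of 2.44 TPM in that line, was not tested at the minimum of 5 TPM. For the difference, where EGLN3 was the 1 called, median-ratio scaling, the GC trend and the length trend removed did not call it but called other genes, and there were 0 with a pseudocount of 0.1, a minimum of 5 TPM, protein-coding transcripts only or a threshold of 0.01. EGLN3 had a highest group mean of 1.21 TPM. It was not tested at the minimum of 5 TPM or over protein-coding transcripts only, so these settings could not call it.

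Same-numbered samples did not deviate together throughout (correlations of 0.361, -0.077 and 0.676 for MOLM-13, and of -0.027, 0.088 and -0.091 for MONO-MAC-6). Not every sample correlated best with the one of its own number. No label says that a number marks a shared batch, and 3 samples a group cannot settle whether it does. With the replicate block, 0 members were called with A9 in either line and for the difference, 1 pathway gene in MOLM-13, 0 in MONO-MAC-6 and 0 for the difference.

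Some small changes turned sign. With median-ratio scaling, the length trend removed and the GC trend removed, A9 changes in MONO-MAC-6 were -0.022, -0.13 and -0.0397 for CUL2 and -0.069, -0.099 and -0.099 for CUL4B, and with the first and the last -0.071 and -0.0775 for CRBN. The differences between the lines under those 3 settings were -0.015, -0.084 and -0.066 for CUL4B and -0.12, -0.25 and -0.11 for DDB1, and with the length trend removed -0.092 for CUL2 and with the GC trend removed -0.018 for CRBN. The DMSO difference of CRBN was -0.061 with the length trend removed and -0.26 over protein-coding transcripts, where the A9 changes of EPAS1 in MOLM-13, DDB1 in MONO-MAC-6 and ZNF692 in MONO-MAC-6 were -0.19, 0.32 and -0.13. Leaving out 1 sample also turned signs. In MOLM-13 the A9 changes then ran from -0.41 to 0.0043 for CUL2, -0.18 to 0.027 for CUL4A, -0.21 to 0.023 for CUL4B, -0.0025 to 0.22 for ELOB and -0.11 to 2.06 for DDB1-203. In MONO-MAC-6 they ran from -0.018 to 0.38 for CUL4A, -0.071 to 0.195 for CUL4B, -0.24 to 0.023 for DDB1, -0.42 to 0.0022 for ELOB, -0.16 to 0.035 for VHL and -0.24 to 0.65 for DDB1-201, and the difference between the lines for DDB1 from -0.043 to 0.22. The cause was not tested. TPM without counts limit precision, and 3 samples a group leave intervals of the size printed above.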
